A study of Mus musculus with 10 samples.

Results

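The genes described here encode the hemidesmosome, the laminin chains and the integrins with which skin epithelium holds on to its basement membrane. They were taken by name as Col17a1, Dst, Itgb4, Itga6, Itga3, Itgb1, Lama3, Lamb3, Lama5 and Nid1, with every probe-set that the platform annotation assigned to one of them alone. That gave 23 probe-sets of 10 genes, out of 22626 probe-sets and 12393 named genes on the array. The questions were how each gene's signal was distributed over the cells in and around the hair follicle, how much was lost between the outer root sheath and the matrix, and whether the probe-sets of a gene agreed.

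Signals came from 10 Affymetrix MOE430A arrays, 2 for each of 5 populations that were sorted from the backskin of mice at postnatal day 4. All mice carried 2 transgenes, K14-H2BGFP, in which a keratin 14 promoter drives a nuclear green protein in epithelial cells, and Lef1-RFP, in which a fragment of the human Lef1 promoter drives a red protein. Matrix cells (Mx), the dividing progenitors at the follicle base, were GFP-low and RFP-. Cells of the outer root sheath (ORS), the outer epithelial layer of the follicle, were GFP-high and RFP-. Dermal papilla cells (DP) were RFP-high, GFP-, CD34-, CD45- and CD117-. The dermal fraction (DF), which the paper describes as enriched in fibroblasts, was RFP-, GFP-, CD34-, CD45- and CD117-. Melanocytes (Mc) were RFP-high, GFP- and CD117+. Each preparation pooled several backskins, the methods call the duplicates independent, and the epidermis with the uppermost follicle had been stripped off with dispase before sorting. The epithelial fractions were therefore separated by the strength of a keratin 14 promoter, and DF was defined by what it lacked.

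A hemidesmosome is a rivet at the base of an epithelial cell. Its receptor is the integrin made of the alpha6 and beta4 chains, which binds laminin outside the cell, while type XVII collagen spans the membrane beside it. Inside, the epithelial form of dystonin and plectin tie the receptor to keratin filaments. The laminin of this junction contains the alpha3 and beta3 chains, and inherited loss of these proteins blisters the skin. The beta1 integrins, among them alpha3 with beta1, join the same basement membrane to actin instead, and laminin alpha5 and nidogen belong to basement membranes of many tissues. In the follicle the basement membrane runs along the outside of the ORS and also separates Mx from the dermal papilla.

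Marker genes separated the fractions but also showed RNA beyond their labels. Hair shaft and inner root sheath markers, genes of the differentiated progeny of matrix cells, summed to 28020 and 23470 in Mx. Their sums were 3708 and 5996 in ORS, 1274 and 7003 in DF, 3183 and 3350 in DP and at most 1345 in Mc. The 5 dermal papilla markers summed to 11690 and 12440 in DP and at most 502.9 elsewhere. Fibroblast markers, 5 of them, summed to 17110 and 15520 in DF, 10830 and 10110 in DP and at most 2033 elsewhere. Pdgfra and Lum read higher in DP than in DF, and Col1a1, Col1a2 and Dpt lower. Summed signals of 6 basal keratinocyte markers, Krt5 and Krt14 among them, were 20060 and 24190 in ORS, 6430 and 7602 in Mx, 979.1 and 2133 in DF, and at most 719.0 in DP and Mc. The Mc sums of that basal list were mostly Cdh1, at 472.6 and 525.2. Blood markers summed to 3620 and 4483 in DF and at most 160.5 elsewhere. The DF sums were nearly all Alas2, at 3461.6 and 4266.2. Hba-a1, at 31.9 and 27.7, and Ptprc, at 3.6 and 9.2, were near background in DF, and Cd14 read 123.0 and 180.4. Sums of 6 endothelial markers were 3593 and 2590 in DF and at most 274.6 elsewhere. The 5 pericyte and smooth muscle markers summed to 19710 and 20980 in DF, 3997 and 5325 in ORS, 3056 and 5291 in DP and at most 412.5 in Mx and Mc, and the ORS sums came from Acta2, Tagln and Cspg4, with Rgs5 and Myh11 at 39.7 or less. Of 3 glial markers measured, the sums were 2425 and 1815 in DF, mostly Mbp, 954.6 and 1237 in DP, 1888 and 1951 in Mc, nearly all Sox10, and at most 85.0 in the epithelium. The paper reports Sox10 as preferentially expressed in Mc, so the Mc sum is not a reading of glia. The DP sums also held Sox10, at 537.2 and 517.8, beside Mbp at 169.6 and 442.8 and S100b at 247.8 and 276.7. Melanocyte markers, 6 of them, reached 28300 and 29720 in Mc, 23320 and 14540 in DP and 12400 and 3730 in DF, and at most 867.5 in the epithelial fractions. In whole fractions such as these, fewer cells of a type and less RNA per cell cannot be told apart.

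Of the 23 probe-sets, 17 had a signal of at least 200 on both arrays of some population and were tested, at least 1 for each gene. Among these, 13 reached that bound in ORS, 8 of them in ORS alone, and 2 reached it in Mx, so that many entered through the fraction where they were high. The 6 others, 4 of Itgb1 and 2 of Itga3, stayed at or below 153.1 on every array. Differences below are means of log2(signal + 50), a scale that understates the change of low signals, with their standard errors (SE) and with adjusted p-values from a limma fit over 8054 probe-sets. Signals were compared between populations for one probe-set at a time, except in the tests of agreement between probe-sets of a gene.

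**Figure D1:**
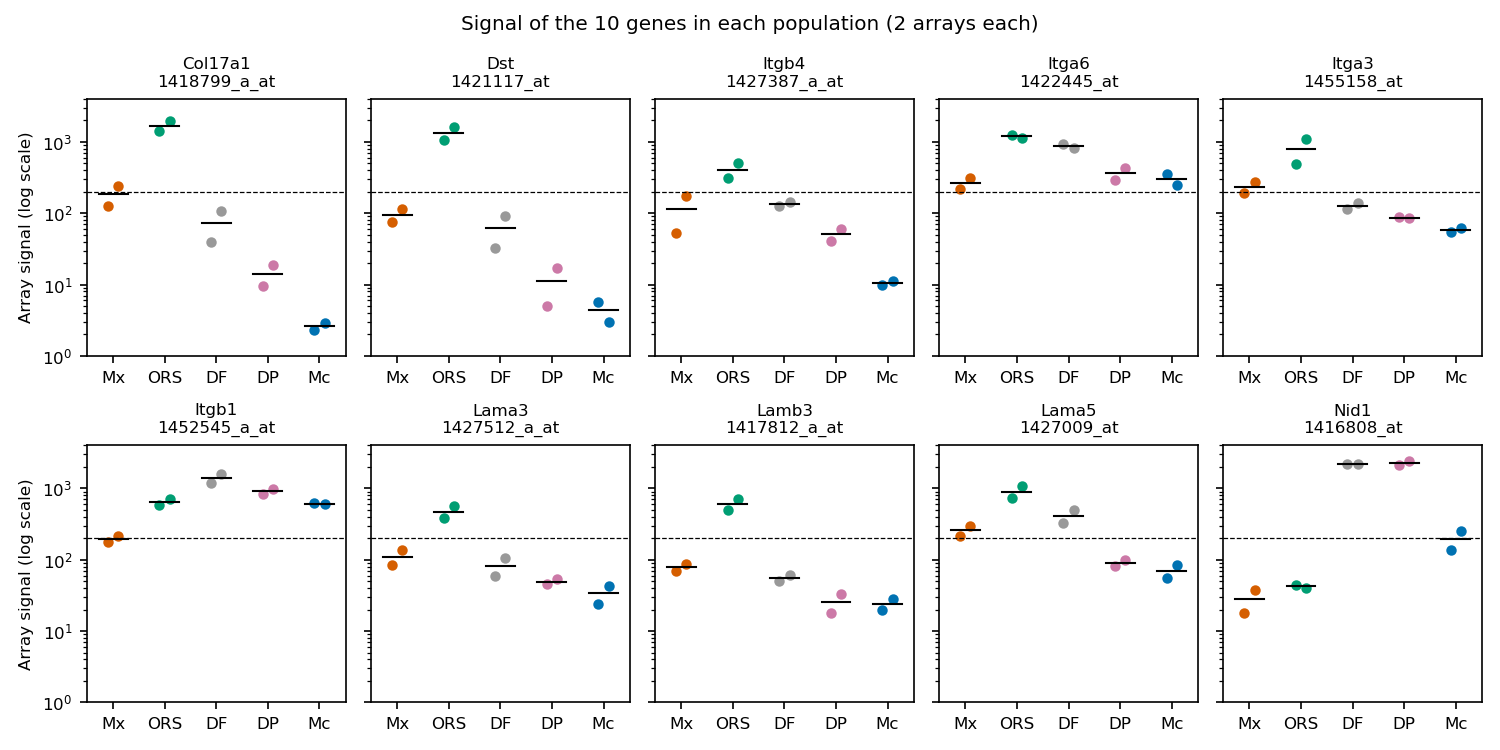
One probe-set of each of the 10 genes, with the array signal on a log axis against the 5 populations; points are the 2 arrays, bars their mean, and the dashed line the bound of 200. Signals of Col17a1 and of the plotted Dst probe-set, 1421117_at, were highest in ORS (other Dst probe-sets were highest in Mc), that of Nid1 in DF and DP, and those of Itga6 and Itgb1 were spread over all 5 populations.

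ORS signals exceeded Mx signals for 9 of the 10 genes, and no gene was lower. By probe-set, 15 of the 17 tested were higher in ORS and 0 lower at an adjusted p under 0.05 in limma, where 15.4% of all tested probe-sets were higher and 4.04% lower. At an unadjusted p under 0.05 the count lower was also 0. For all 17, both ORS arrays lay above both Mx arrays. The members' median log2 difference was 1.61, and that of all tested probe-sets was 0.11. Without the bound on signals, 16 of the 23 were higher and 0 lower. In that setting 1776 of all 22626 probe-sets were called, 81% of those higher in ORS. Within the bound, Nid1 was the gene whose probe-sets did not pass. The study's own ORS signature, drawn from these same arrays, names Col17a1, Lamb3, Lama5, Lama3, Itgb4, Itga3 and Dst, so the direction of those genes is not independent evidence.

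**Figure D2:**
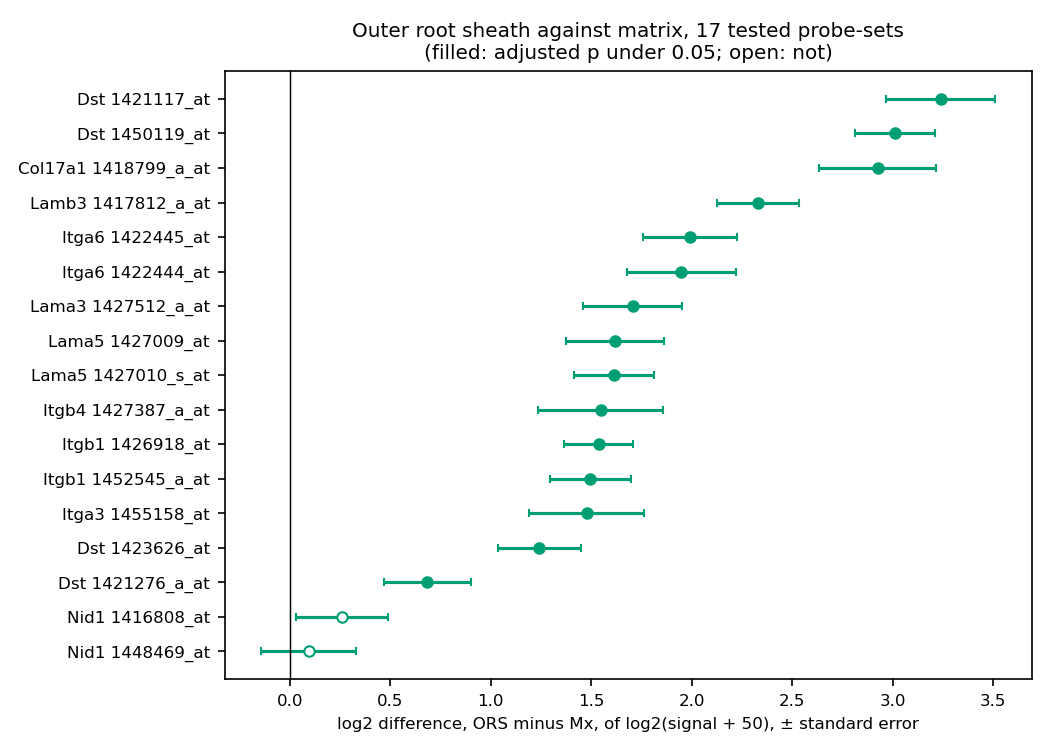
Log2 difference between ORS and Mx for the 17 tested probe-sets, each point with its SE; filled points had an adjusted p under 0.05 and open points did not. Values ran from 0.09 for Nid1 probe-set 1448469_at to 3.24 for Dst probe-set 1421117_at.

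The junction's own proteins come first. Col17a1, type XVII collagen, gave signals of 1403.1 and 1984.7 in ORS and 125.8 and 241.4 in Mx. In DF it read 40.0 and 106.4, in DP 9.6 and 18.7, and in Mc 2.3 and 2.9. The ORS arrays stood far above all others, and the mean in Mx was 10.8% of that in ORS. ORS exceeded Mx by 2.93 on the log2 scale (SE 0.29, limma adjusted p = 1.4e-05), and Mx in turn exceeded DF by 0.93 (adjusted p = 0.018). The higher Col17a1 array of DF was the one with the higher sum of basal keratinocyte markers, and the part of such cells in the DF signal was not tested.

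Itgb4, the chain that makes integrin alpha6beta4 a hemidesmosome receptor, read 307.8 and 499.8 in ORS, against 53.0 and 173.5 in Mx and 124.5 and 143.9 in DF. Its signals in DP were 40.4 and 60.3 and those in Mc 9.9 and 11.3. Both ORS arrays were above all 8 others, while the Mx arrays straddled those of DF, and Mx and DF were not called different (adjusted p = 0.47). ORS exceeded Mx by 1.55 (SE 0.31, limma adjusted p = 0.0033). That call was lost without ORS replicate 2, at 1.24 and an adjusted p of 0.0512, and without Mx replicate 1 the difference was 0.99 (adjusted p = 0.034).

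Itga6, the partner of Itgb4 and also of Itgb1, was less restricted. Probe-set 1422445_at read 1252.8 and 1131.9 in ORS, 219.3 and 311.8 in Mx, 936.4 and 817.8 in DF, 293.3 and 435.6 in DP and 356.6 and 245.9 in Mc, above the bound of 200 everywhere. The values of Mx, DP and Mc overlapped, and DF came close to ORS. ORS exceeded Mx by 1.99 (SE 0.23, limma adjusted p = 5.5e-05) and DF by 0.42 (SE 0.23, adjusted p = 0.19), and the latter was not called. The other probe-set, 1422444_at, gave 1.95 (SE 0.27, limma adjusted p = 2.2e-04) over Mx and 0.35 (SE 0.27, adjusted p = 0.35) over DF. That probe-set reached 200 on both arrays only in ORS and DF, and its ORS and DF arrays overlapped. DF was the only fraction with endothelial marker sums above 274.6 and also had the highest pericyte sums, which were lower but present in ORS and DP. The part of such cells in the DF signal of Itga6 was not tested.

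Itga3, whose product pairs with beta1 to bind laminin, was measured by 3 probe-sets. In the tested one, 1455158_at, ORS read 490.8 and 1084.5, Mx 194.1 and 274.6, and DF 112.9 and 141.0. DP gave 87.6 and 84.9 and Mc 53.9 and 62.7. ORS was highest on both arrays and exceeded Mx by 1.48 (SE 0.29, limma adjusted p = 0.0026). The distance between the ORS arrays mattered here, since ORS replicate 1 alone exceeded the Mx mean by 0.94 and replicate 2 by 2.01. In the untested pair ORS was again above every other array, at up to 153.1 for 1421997_s_at and 77.2 for 1460305_at.

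Itgb1, the common partner of many alpha chains, was not an ORS gene. Probe-set 1426918_at read 1005.5 and 1106.0 in DF, 696.4 and 781.6 in DP, 515.8 and 550.7 in ORS, 507.0 and 493.7 in Mc and 151.1 and 150.9 in Mx. Only the Mx arrays stood apart at the low end, and ORS and Mc could not be separated (difference 0.08, SE 0.17, limma adjusted p = 0.73). ORS exceeded Mx by 1.54 (SE 0.17, adjusted p = 3.4e-05) and was below DF (log2 difference -0.92, SE 0.17, adjusted p = 9.7e-04), while the difference of -0.43 from DP was not called (adjusted p = 0.059). Probe-set 1452545_a_at gave 1.49 (SE 0.20, adjusted p = 1.6e-04) over Mx and -1.04 against DF. Of the 6 probe-sets of Itgb1, the 4 untested reached 69.8 at most and add nothing to this order.

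The laminin chains behaved as follows. Lamb3, the beta chain specific to the hemidesmosomal laminin, read 498.3 and 708.6 in ORS, 69.8 and 87.4 in Mx, 50.4 and 61.2 in DF, 18.2 and 32.8 in DP and 19.5 and 28.2 in Mc. No array outside ORS came near the ORS pair, and the Mx mean was 13.0% of the ORS mean. ORS exceeded Mx by 2.33 (SE 0.21, limma adjusted p = 6.6e-06). Mx and DF were not called different (0.28, SE 0.21, adjusted p = 0.27).

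Lama3, the alpha chain of the same laminin, read 384.0 and 557.7 in ORS, 83.5 and 135.8 in Mx and 59.0 and 104.5 in DF. Its signals in DP were 45.5 and 53.5 and in Mc 24.3 and 43.5. Mx and DF overlapped, and ORS exceeded Mx by 1.71 (SE 0.25, limma adjusted p = 2.8e-04).

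Lama5, the broadly expressed alpha chain, read 732.9 and 1062.4 in ORS with probe-set 1427009_at, 327.3 and 492.0 in DF, 214.5 and 299.8 in Mx, 82.9 and 98.4 in DP and 55.9 and 83.2 in Mc. DF was here the next highest after ORS, though DF and Mx were not called different (adjusted p = 0.067), and DP and Mc were both low. ORS exceeded Mx by 1.62 (SE 0.24, limma adjusted p = 4.0e-04) and DF by 1.05 (SE 0.24, adjusted p = 0.0051). The other probe-set, 1427010_s_at, a type that can also read related transcripts, gave 1.61 (SE 0.20, adjusted p = 8.4e-05) over Mx. DF exceeded DP by 1.69 and 1.09 with the 2 probe-sets (adjusted p = 3.0e-04 and 0.0018).

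Nid1, nidogen, which bridges laminin and collagen IV, had the opposite distribution. Probe-set 1416808_at read 2144.4 and 2412.2 in DP, 2182.6 and 2194.4 in DF, 138.2 and 251.1 in Mc, 44.0 and 40.6 in ORS and 17.8 and 37.8 in Mx. DP and DF overlapped at the top, and both epithelial fractions were far below the bound. ORS minus DF was -4.60 (SE 0.23, limma adjusted p = 1.6e-08) and ORS minus DP -4.65 (SE 0.23, adjusted p = 1.2e-08), whereas ORS minus Mx, 0.26 (SE 0.23), was not called (adjusted p = 0.48). With probe-set 1448469_at, too, DF and DP were far above ORS (log2 differences of -3.86 and -3.98), but ORS and Mc, both near background, were not called different (-0.25, adjusted p = 0.43), whereas with 1416808_at they were (-1.37, adjusted p = 3.4e-04).

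ORS was also set against the other 3 populations, with the same ORS arrays in every comparison. Against DF, 9 of the 17 tested probe-sets were higher in ORS and 6 lower, where 15.4% and 19.5% of all tested probe-sets were. Against DP the counts were 11 higher and 4 lower, beside 20.3% and 19.8% of all, and against Mc 11 higher and 3 lower, beside 25.2% and 15.8%. The higher ones were the probe-sets of Col17a1, Itgb4, Itga3, Lama3, Lamb3, Lama5 and a pair of Dst, joined by Itga6 against DP and Mc. The lower ones were those of Nid1 and the other pair of Dst, except that Nid1 probe-set 1448469_at was not called against Mc. The tested probe-sets of Itgb1 were called lower against DF only. For Col17a1 the log2 differences were 3.86 over DF, 4.75 over DP and 5.03 over Mc (SE 0.29 each), the last 2 against signals near background, so that their size rests on the added constant.

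A stricter rule asked for at least a 2-fold excess in ORS over Mx, DF, DP and Mc alike, each called in limma, and 9 of the 17 probe-sets, from 7 genes, met it. Because 8 of the 17 entered the test through ORS alone, the bound on signals favours this count. With no bound, an alternative added after the data were seen, 10 of the 23 met it, beside 0.747% of all 22626. Of all tested probe-sets, 149, or 1.85%, met this rule. The 7 genes were Col17a1, Dst, Itga3, Itgb4, Lama3, Lama5 and Lamb3. They are the members given above as named in the study's ORS signature. That signature was drawn from these same arrays by a like 2-fold rule, so the count is not independent evidence. Itga6 missed it through DF and Itgb1 through the mesenchymal and melanocyte fractions.

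**Figure D3:**
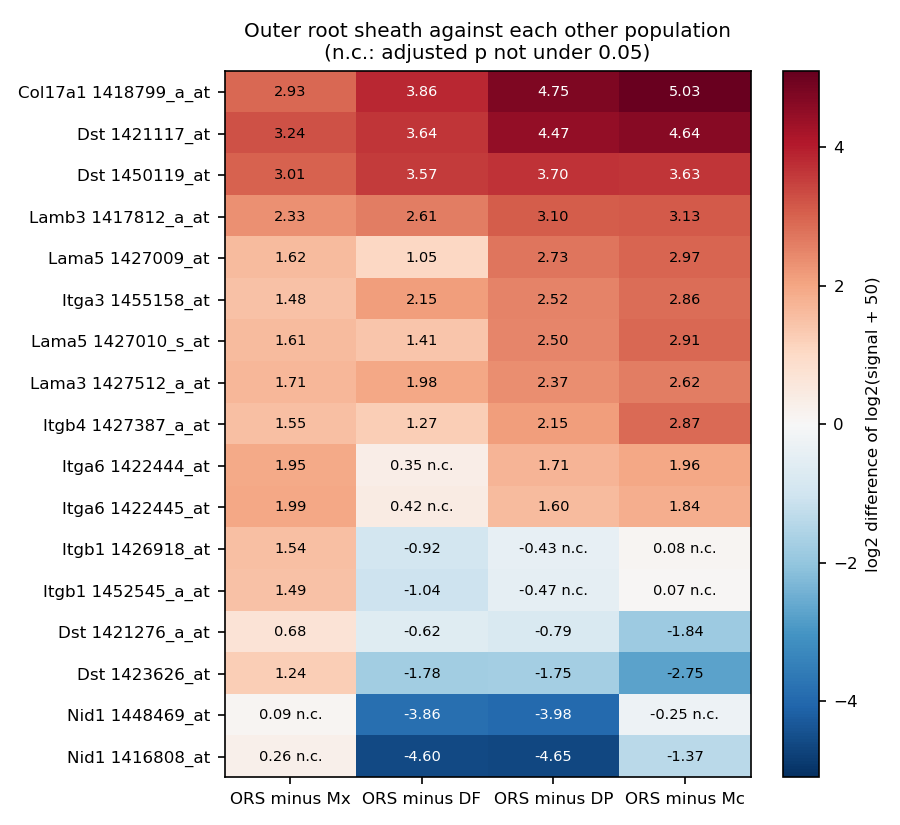
Log2 differences of ORS from Mx, DF, DP and Mc (columns) for the 17 tested probe-sets (rows), coloured by size and sign, with "n.c." where the adjusted p was not under 0.05. The column for Mx holds no negative value, while Nid1, Itgb1 and 2 Dst probe-sets turn negative against DF and DP.

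The Mx fraction was not simply the lowest. It had the lowest mean of the 5 populations for 7 of the 17 tested probe-sets, the tested ones of Itgb1 and Nid1, 1 of Itga6 and 2 of Dst, and was next after ORS for Col17a1, Itga3, Lama3, Lamb3 and a pair of Dst probe-sets. Between Mx and DF, 10 of the 17 (58.8%) were called, close to the 52.2% of all tested probe-sets. Between Mx and DP 14 (82.4%) were called, beside 58.1%, and between Mx and Mc 14 (82.4%), beside 50%. Of the 14 called against DP, 8 were higher in Mx and 6 lower. The share of each direction over all probe-sets was not counted here. Among the higher were Col17a1 by 1.82 (adjusted p = 2.0e-04), Lama5 by 1.11 (adjusted p = 0.0020), Itga3 by 1.05 (adjusted p = 0.0077) and Lamb3 by 0.77 (adjusted p = 0.0066), all in limma. For these the Mx mean was 10.8% to 29.8% of the ORS mean. Between DF and DP, 4 probe-sets (23.5%) were called, close to the 19% of all, and they were those of Itga6 and Lama5, higher in DF. Between DF and Mc 13 (76.5%) were called, beside 36.3%, and between DP and Mc 5 (29.4%), close to 30.5%.

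Dst encodes dystonin, a plakin whose epithelial form anchors keratin in hemidesmosomes and whose longer neuronal and muscle forms link other filaments. Its 4 probe-sets disagreed. With 1421117_at ORS read 1059.3 and 1594.1, Mx 74.6 and 114.7, DF 32.7 and 92.0, DP 5.0 and 17.3 and Mc 5.7 and 3.0. With 1450119_at ORS read 629.6 and 812.8, Mx 33.0 and 58.7, DF 19.5 and 9.8, DP 9.1 and 8.6 and Mc 10.7 and 12.7. By their means both follow the order seen for Col17a1 at the top, ORS first and Mx next. Mx and DF were not called different for 1421117_at (0.40, SE 0.27, limma adjusted p = 0.23), where their arrays overlapped. For 1450119_at they were (0.56, SE 0.20, adjusted p = 0.032).

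The other pair ran the other way. With 1423626_at Mc read 951.2 and 1301.8, DF 586.9 and 505.5, DP 581.7 and 490.5, ORS 108.0 and 140.3 and Mx 18.1 and 29.1. With 1421276_a_at Mc read 222.5 and 300.6, DP 80.8 and 120.4, DF 64.8 and 102.7, ORS 30.4 and 42.4 and Mx 4.8 and 2.5. Melanocytes were thus highest and the epithelium lowest, with DF and DP overlapping between them. The summed melanocyte markers given above were also higher in these 3 fractions than in the epithelium. Sox10, listed with the glial markers but reported by the paper as preferentially expressed in Mc, read highest in Mc. The other glial markers, Mbp, at 23.8 and 22.1, and S100b, at 29.3 and 34.6, were near background there. The part of melanocytes or glial cells in the DF and DP signals was not tested. For these probe-sets the Mc mean was 9.07 and 7.19 times the ORS mean, while for 1421117_at and 1450119_at the Mc arrays were near background, at 12.7 or less, and no fold is given.

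**Figure D4:**
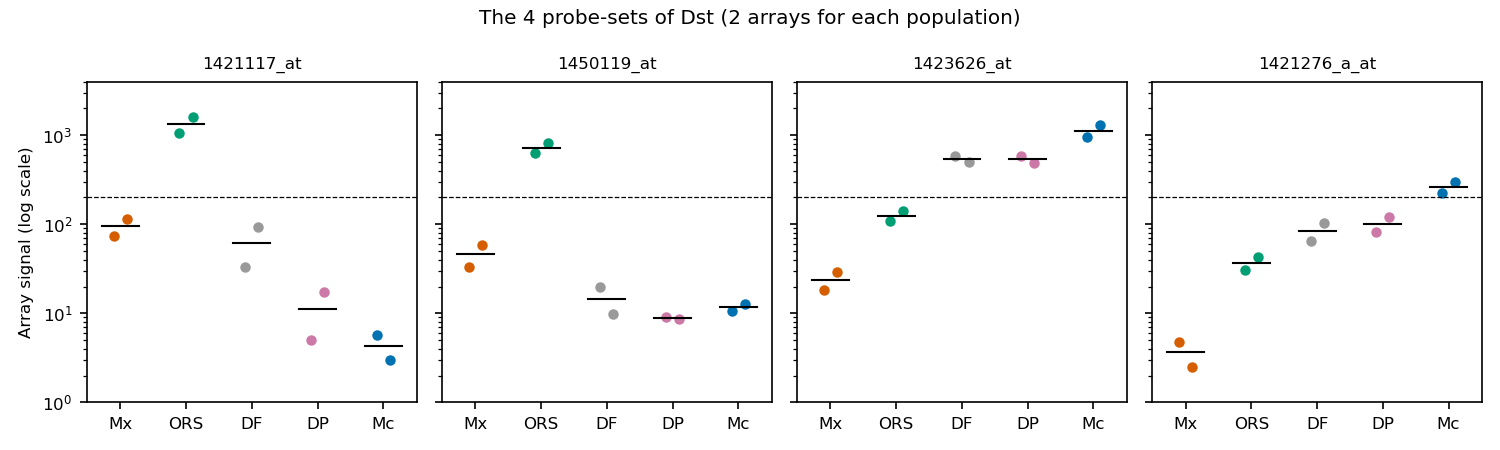
Array signal on a log axis of the 4 Dst probe-sets in the 5 populations; points are the 2 arrays, bars their mean, and the dashed line the bound of 200. The first pair peaks in ORS, where 1421117_at reads 1059.3 and 1594.1, and the second pair in Mc, where 1423626_at reads 951.2 and 1301.8.

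All 4 probe-sets were lower in Mx than in ORS, but by different amounts. The log2 differences were 3.24 (SE 0.27, limma adjusted p = 4.8e-06) for 1421117_at, 3.01 (SE 0.20, adjusted p = 9.2e-07) for 1450119_at, 1.24 (SE 0.21, adjusted p = 8.3e-04) for 1423626_at and 0.68 (SE 0.22, adjusted p = 0.042) for 1421276_a_at. The size of the last and of 1423626_at, low signals in Mx, depended on the added constant. With 16 and 1 in place of 50 they were 1.41 and 3.03 for 1421276_a_at and 1.83 and 2.37 for 1423626_at, beside 3.60 and 3.80 for 1421117_at. The probe-set 1421276_a_at, whose ORS and Mx signals were all below 45, lost its call under 7 alternatives, among them leaving out either ORS or either Mx array, with adjusted p up to 0.22. ORS minus Mc was 4.64 and 3.63 for the first pair and -2.75 and -1.84 for the second, all called. For the first pair the Mc signals were near background, so the sizes of its differences rest on the added constant.

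Whether the disagreement exceeded the spread between arrays was tested on the log2 ratio of each probe-set to 1423626_at within an array. From Mx to ORS the ratio of 1450119_at rose by 1.77 (SE 0.18, limma adjusted p = 6.9e-04) and that of 1421117_at by 2.00 (SE 0.30, adjusted p = 0.0054), so 2 of the 3 Dst ratios were called. Over 2090 such ratios of 1483 genes, 31 were called, or 1.48%. The ratio of 1421276_a_at moved by -0.56 (SE 0.24, adjusted p = 0.45). The 1421117_at call was lost with a constant of 16 or 1 in place of 50, at adjusted p of 0.093 and 0.53, and without Mx replicate 1 or ORS replicate 2, at 0.054 and 0.063, whereas that of 1450119_at held in all 20 alternatives run. The probe-set pairs of Itga6, Itgb1, Lama5 and Nid1 had ratio differences between -0.16 and 0.04 from Mx to ORS, none called (adjusted p of at least 0.92).

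RefSeq lists 2 starts for Dst, 148665 bases apart on chromosome 1. The 250 bases before each are printed because the probe-sets disagree, followed by those before Col17a1, the gene whose pattern the first pair shared, and Nid1, which was the member lowest in epithelium relative to mesenchyme. Build is GRCm38.p6, sequences read 5′ to 3′ along the gene, and capitals mark GC boxes, GGGCGG or its reverse complement CCGCCC.

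Dst, first start, chr1:34011345-34011594, + strand: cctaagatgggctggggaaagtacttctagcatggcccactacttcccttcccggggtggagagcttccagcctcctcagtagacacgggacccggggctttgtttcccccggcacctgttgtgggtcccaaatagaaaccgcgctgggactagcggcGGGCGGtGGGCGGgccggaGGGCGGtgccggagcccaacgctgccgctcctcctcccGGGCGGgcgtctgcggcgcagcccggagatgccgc

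Dst, second start, chr1:34160010-34160259, + strand: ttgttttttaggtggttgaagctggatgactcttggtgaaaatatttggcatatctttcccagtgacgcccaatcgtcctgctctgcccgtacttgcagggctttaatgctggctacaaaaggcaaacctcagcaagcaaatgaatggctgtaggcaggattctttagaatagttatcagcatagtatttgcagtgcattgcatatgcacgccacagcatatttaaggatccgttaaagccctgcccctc

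Col17a1, chr19:47692043-47692292, - strand: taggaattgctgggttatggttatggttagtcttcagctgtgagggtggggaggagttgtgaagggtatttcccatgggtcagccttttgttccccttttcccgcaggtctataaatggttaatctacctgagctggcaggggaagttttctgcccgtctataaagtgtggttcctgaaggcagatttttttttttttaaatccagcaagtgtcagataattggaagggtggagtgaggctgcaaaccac

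Nid1, chr13:13437352-13437601, + strand: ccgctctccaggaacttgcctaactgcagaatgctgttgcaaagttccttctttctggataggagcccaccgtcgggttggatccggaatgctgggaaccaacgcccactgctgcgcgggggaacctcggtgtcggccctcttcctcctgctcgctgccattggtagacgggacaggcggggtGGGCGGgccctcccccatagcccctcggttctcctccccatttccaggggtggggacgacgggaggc

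The first Dst start had 4 GC boxes and the second none, Col17a1 had none and Nid1 had 1. Over windows of 300 bases, which add 50 bases after the start, a GC box was found in 6 of 10 windows given for 7 of the member genes and in 35.7% of 32851 windows of all genes. The AP-1 motif TGANTCA, searched on both strands, was in 1 of the 10, at a start of Itga3, and in 7.81% of all. These are letters found in a window and not sites of binding. Which start makes the transcripts that each Dst probe-set reads was not tested.

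The partners of the hemidesmosome were counted in the same way, taking each gene by its brightest tested probe-set. ORS exceeded Mx for 5 of 7 such genes, with none lower. Eppk1, epiplakin, differed by 2.47, Col7a1, the collagen of anchoring fibrils, by 2.17, Krt14 by 1.73 and Krt5 by 1.46, the keratins that the junction anchors. The keratin 14 promoter set the sorting gate, so the difference in Krt14 goes with the sort. Plec, plectin, the other plakin of the hemidesmosome, was not called (0.45, adjusted p = 0.21), with 1056.7 and 1225.1 in ORS and 689.9 and 973.8 in Mx.

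Of 6 other laminin chains, 2 were higher in ORS, Lamb1 by 2.36 and Lamc1 by 1.69, and 0 lower. Those chains were high in mesenchyme as well, Lamb1 at 1259.3 and 1181.0 in DF and 1276.1 and 1414.4 in DP against 1102.1 and 969.2 in ORS. Of 12 other basement membrane proteins, 8 were higher and 0 lower. They were led by Col4a1 and Col4a2, the collagen IV chains, at 4.00 and 3.20, then Npnt, nephronectin, at 3.10 and Col18a1 at 2.50. Col4a1 read 2909.2 and 3246.1 in ORS, 114.3 and 183.2 in Mx, and 6281.6 and 6708.8 in DF. Of the 5 pericyte and smooth muscle markers, Acta2, Tagln and Cspg4 read higher in ORS than in Mx on both arrays, Acta2 at 1937.9 and 2613.7 against 204.8 and 235.6. The other markers of that list, Rgs5 and Myh11, were near background in ORS, at 32.2 and 39.7 and at 17.6 and 32.7, as in Mx. Whether cells or RNA of that kind took part in the ORS signals of collagen IV was not tested.

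Among linkers that join integrins to actin, 10 of 11 were higher in ORS and 0 lower, with Fermt2 (kindlin) at 2.69, Pxn (paxillin) at 2.05, Actn1 at 2.00 and Zyx at 1.94. Pxn, Actn1 and Zyx had their highest mean in ORS, and the other tested linkers in DF. Fermt2 read 1797.0 and 1829.1 in DF, 710.0 and 652.3 in ORS and 52.4 and 74.6 in Mx. Of 4 other integrin chains, 1 was called, Itgav, by 0.66 (limma adjusted p = 0.049). None of the 4 other plakins was called, in either direction, and Dsp, desmoplakin, which serves desmosomes between cells, differed by -0.21 (adjusted p = 0.71). At an unadjusted limma p under 0.05, 1 of those 4 passed, lower in ORS. Over all these lists, 26 of 44 genes were higher in ORS and 0 lower, with 1 lower, that same plakin, at the unadjusted p. By probe-set 44 of 70 were higher, beside the 15.4% of all tested probe-sets given above.

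**Figure D5:**
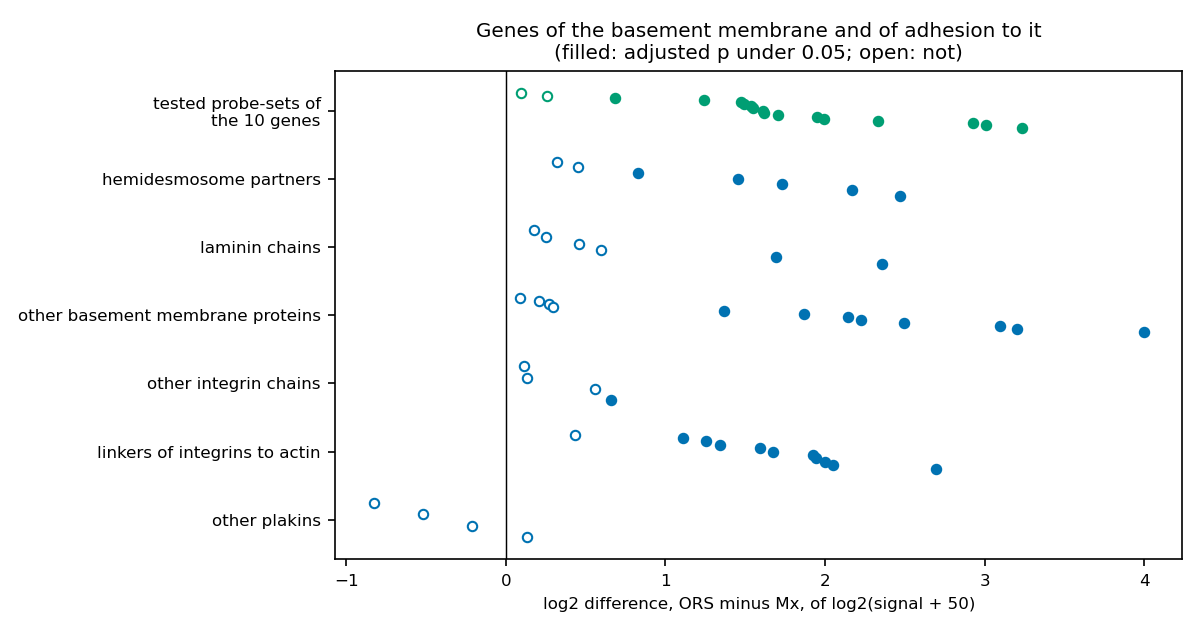
Log2 difference between ORS and Mx for the tested probe-sets of the 10 genes (top) and for genes of 6 related lists, 1 point a gene; filled points had an adjusted p under 0.05. All filled points lie right of 0, up to 4.00 for Col4a1, and the 4 other plakins are all open.

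Across the 10 arrays, the members split by their likeness to Col17a1, given as Pearson's r of the log2 values and as a description only, since the arrays come in pairs of a population. Values were 0.99 for Dst probe-set 1421117_at and for Lama3, 0.98 for Lamb3 and Itga3, and 0.92 for Itgb4. Itga6 stood at 0.67 and 0.66, Itgb1 near -0.20, Nid1 at -0.58 and -0.48, and the second pair of Dst probe-sets at -0.66 and -0.61. Outside the members and the related lists, the genes most like Col17a1 were Krt15, Acad9, Nfib, Ckmt1 and Irx4, with r from 0.984 to 0.991. Krt15, itself in the basal keratinocyte marker list, read 5647 ± 867.8 (SD, n = 2) in ORS and 202.5 ± 90.2 in Mx. The genes most like Itgb4 were Runx1, Sorl1, Pou3f1, Bcam and D17H6S56E-5, with r from 0.974 to 0.985. Bcam, itself a receptor for laminin alpha5, read 1259 ± 274.1 in ORS and 292.5 ± 157.4 in Mx.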

How the data were processed

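The authors deposited, for each array, the intensity of each probe-set on a linear scale, computed with MAS 5.0 and scaled for every array to a common target. The deposited array descriptions, a file of other text, gave the chip lot. The 64 control probe-sets were left out. Genes were named through the platform annotation, which gave 20380 probe-sets 1 gene, 691 several and 1555 none. The median signal of an array was 49.9 to 90.9, and the number of arrays, 2 a population, limits the precision.

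Probe-sets at 200 or more on both arrays of at least 1 population entered a linear model of log2(signal + 50) in limma 3.58.1 under R 4.3.3, with a mean for each of the 5 populations, and the Benjamini-Hochberg adjustment ran over all of them for each pair of populations. The fit had 5 residual and 7.46 prior degrees of freedom and a median residual SD of 0.21. An exact permutation test of 2 arrays against 2 cannot go below 0.333, so each p rests on the spread pooled over arrays and probe-sets. Ratios within an array were taken to the gene's brightest probe-set. The scripts were tested on simulated data. Arrays belonged to 2 chip lots, with 6 and 4 arrays, and both Mx arrays lay in the larger lot. Alternatives were other constants, bounds, scalings, blocks, a robust variance model, the 2 populations alone, diffSplice for ratios and single arrays left out. The 10 genes, the related lists, the marker lists and the tests were chosen with earlier results of these data known. Related genes named are up to 4 a list with the largest called difference, and Cd151 is among those called; others named were chosen after their values were seen. Promoter sequences are from RefSeq. Python 3.11.15, pandas 2.3.3, numpy 2.4.6 and matplotlib 3.10.9 read the files and drew the plots.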

Additional observations from a re-analysis of the deposited data

How the results depend on the processing

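Of 340 recomputed ORS minus Mx differences of the 17 tested probe-sets, 332 kept their direction and side of the threshold, 8 kept the direction but lost the call and 0 reversed. The lost ones were Dst probe-set 1421276_a_at in 7 and Itgb4 in 1. The count of members called stayed at 13 to 16 between settings, 13 without ORS replicate 2. The count of called Dst ratios, 2, was 1 with a constant of 16, 1 with a constant of 1, and 1 to 2 with single arrays left out. With limma's diffSplice, which sets each probe-set against the gene's others, 3 of 4 Dst probe-sets were called, 2 higher and 1 lower. With the constant of 1 the uncalled ratio of Dst probe-set 1421276_a_at turned from -0.56 to 0.66. The cause was not tested.

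Over all probe-sets, 1566 differed between ORS and Mx, 79.2% of them higher in ORS; the number was 927 without ORS replicate 2, 1041 without Mx replicate 1, 2667 without Mx replicate 2 and 1009 with these populations fitted alone. Quantile normalization moved the median difference of all tested probe-sets from 0.11 to -0.03 and the share higher in ORS to 61.4%, and rescaling to a common trimmed mean to -0.01 and 63.6%, while member differences kept their direction. Within the lot that holds Mx and ORS replicate 1, differences were 2.68 for Col17a1 and 0.94 for Itga3, and with the lot as a block 14 members were called.

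The labels do not say whether replicate numbers pair samples. Deviations correlated above 0.1 in 5 of 10 pairs of populations (r from -0.0456 to 0.34, below 0 in 2), most for Mx with ORS. Such values cannot settle the pairing. With the replicate block 15 members and 2 Dst ratios were called, as without it. Signals near the background of the array limit all statements on the low side, for Dst 1421276_a_at most.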
